A study of Brassica napus with 6 samples.

Results

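The dominant transcripts of day 4 embryogenic cultures of Brassica napus (oilseed rape) were selected on their measured level in HS4d replicates 1 and 2. A gene was taken when its CPM, its count per 1000000 counts of the library, was among the 100 highest in both. This rule gave 90 genes of the 104573 in the count table, called members here and numbered from 1 to 90 by their mean CPM over those libraries. Since these libraries chose the members, their levels in them are a description. All 6 libraries came from line DH-4079 of cultivar Topas. The VM group holds 3 libraries of vacuolated microspores (late unicellular microspores), isolated from flower buds and sampled untreated at day 0. The HS4d group holds 3 libraries of microspore cultures kept at 32 °C from their start and sampled at day 4, when they held both microspores and proembryos. No unheated day 4 culture was analysed here, and effects of the heat, of time and of development cannot be told apart. The libraries are bulk RNA of mixed cultures, in which fewer cells of a type and less RNA per cell cannot be told apart.

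In pollen development a microspore divides asymmetrically and becomes a pollen grain. A stress such as heat applied around the first pollen mitosis can divert part of the microspores in culture to divide as an embryo would, still inside the pollen wall, and oilseed rape is a standard species for following this switch. The most abundant messages of such a culture can therefore come from dividing proembryos, from microspores that did not respond, or from both. Their source was not determined here.

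The identifiers of all 90 members begin with GSBRNA2T, and none begins with ENSRNA, a prefix carried by 3533 rows of the table. The files hold identifiers without names, and 0 of those identifiers matched the gene table of the reference (RefSeq, assembly Da-Ae). No product, sequence, position or gene length is therefore given, members are cited by number, and markers could not be used to check the labelled cell types. Levels were not corrected for gene length, so the order of the members is an order of counts, which longer transcripts raise.

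Library totals ran from 29144220 to 39558658 counts, so that 3 counts corresponded to 0.0758 to 0.103 CPM. HS4d replicate 3 had no part in choosing the members and is given on its own throughout. In HS4d replicates 1 and 2 the members made up 35.0% and 36.9% of all counts, but only 0.390% in HS4d replicate 3. A smaller share in the library left out of the rule is in part built in. The 100 highest genes of HS4d replicate 3 held 11.65% of its own counts, and 0.975% and 0.849% of HS4d replicates 1 and 2. In VM replicates 1, 2 and 3 the 90 members held 0.146%, 0.123% and 0.169% of all counts. The 10 highest ranked members alone made up 10.6% and 10.99% of HS4d replicates 1 and 2, the 20 highest 16.9% and 17.6%, and the 50 highest 27.8% and 29.3%.

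The leading member was GSBRNA2T00156847001. It stood at 16163, 16161 and 123 CPM in HS4d replicates 1, 2 and 3, and at 1.51, 0.456 and 3.18 CPM in VM replicates 1, 2 and 3. It thus ranked first in both libraries that chose the members, while its VM levels came from 48, 15 and 106 counts. The next was GSBRNA2T00049471001, with 13058, 13349 and 149 CPM in HS4d replicates 1, 2 and 3. In VM it had 16, 1 and 51 counts, or 0.505, 0.0304 and 1.53 CPM. For both genes every heated library lay above every VM library, and VM replicate 2 was the lowest of all 6.

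Levels fell smoothly down the list in HS4d replicates 1 and 2, with a median of 2654 and 3046 CPM and a lowest member at 1203 and 1255 CPM. The boundary of the rule cut through a continuous range. The gene at rank 100 and the next one stood at 1203.4 and 1203.1 CPM in HS4d replicate 1, and at 1236 and 1235 CPM in HS4d replicate 2. The 10 genes of each top 100 that were not members ranked no lower than 124 (those of HS4d replicate 1) or 165 (those of HS4d replicate 2) in the other library. HS4d replicates 1 and 2 ordered the members alike, with a Spearman correlation of 0.936 over 90 genes, which describes libraries that the rule had already matched. The ratio of replicate 2 to replicate 1 ranged from 0.699 (member 62) to 1.71 (member 72), with a median of 1.04.

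**Figure D1:**
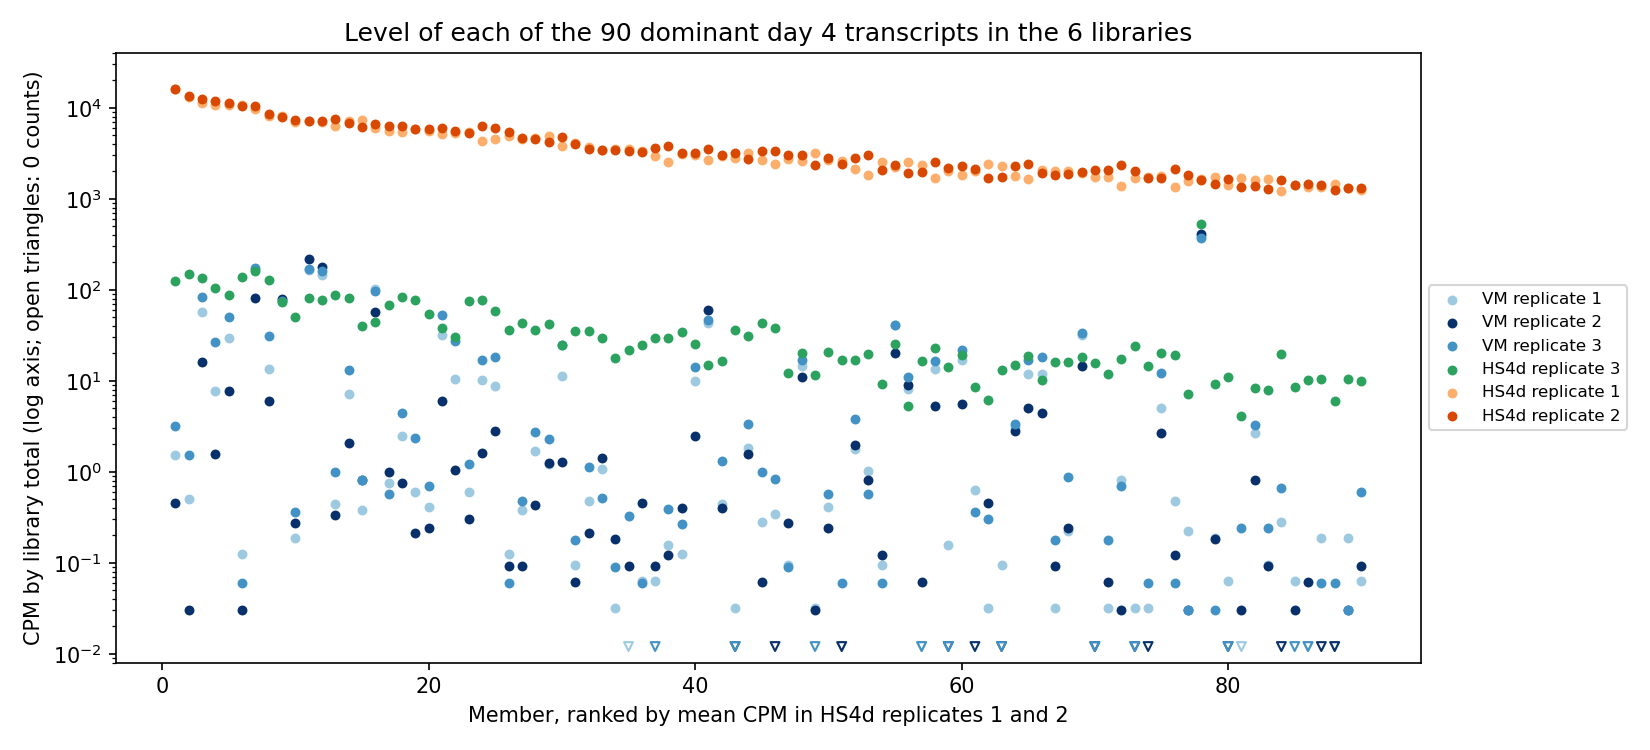
CPM of each of the 90 members in the 6 libraries (log axis), with members ordered by their mean CPM in HS4d replicates 1 and 2 and open triangles for 0 counts. HS4d replicates 1 and 2 fall from about 16163 to about 1203 CPM along the list, HS4d replicate 3 forms a band from 4.13 to 528 CPM below them, and the VM libraries scatter from 0 to 406 CPM.

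The deposited values from the authors' variance-stabilising transformation (VST, a log2-like scale) cover 5 of the 6 libraries. All 90 members were in that table. The 100 highest values of HS4d replicates 1 and 2 again had 90 genes in common, all 90 of them members. A transformation that keeps the order of counts within a library gives this overlap by construction, so it is not separate support for the list. The median VST value of the members was 16.6 and 16.8 in HS4d replicates 1 and 2, and 4.39, 4.12 and 4.76 in VM replicates 1, 2 and 3. Over all rows of that table the medians lay between 5.60 and 5.92. At day 0 the median member was thus below the median gene on this scale.

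In vacuolated microspores 53 of the 90 members had a mean under 1 CPM, while 21 were already at 10 CPM or more. Silent here means 3 counts or fewer over the 3 VM libraries, trace means more than that but a mean under 1 CPM, low means a mean of 1 to under 10 CPM, expressed 10 to under 100 CPM, and high 100 CPM or more. Of the 90 members, 12 were silent, 41 trace, 16 low, 17 expressed and 4 high in VM. The silent members were 13.3% of the list, the trace members 45.6%, the low members 17.8%, the expressed members 18.9% and the high members 4.44%. Among the 86574 genes with any count the shares were 20.0% silent, 27.6% trace, 27.9% low, 22.6% expressed and 1.83% high. Silent genes were thus a smaller share of the members than of all genes, and trace genes a larger one. The 70 genes that came next, below the top 100 but within the top 200 of both HS4d replicates 1 and 2, had 14 silent, 43 trace, 6 low, 5 expressed and 2 high genes. No test was made of these shares.

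The silent members sat in the lower part of the list, between ranks 43 and 88, and none was among the 20 highest. Their share of all counts was 2.41% in HS4d replicate 1 and 2.32% in HS4d replicate 2. Only member 70 had no count in any VM library. It stood at 1754, 2080 and 15.8 CPM in HS4d replicates 1, 2 and 3. Pooled over the heated libraries 1 and 2, its level was at least 63375-fold higher than 3 counts among all VM counts would give. For HS4d replicate 3, which did not choose it, the bound was at least 517-fold higher. Member 43 had 1, 0 and 0 counts in VM replicates 1, 2 and 3, and 2795, 3187 and 36.4 CPM in HS4d replicates 1, 2 and 3. For HS4d replicate 3 the ratio to pooled VM counts was 3563, with an exact 95% counting interval (Clopper-Pearson) from 638 to 140834. Such limits and intervals cover counting error only, since without molecular identifiers a read is not an independent molecule.

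The trace members were the largest class, with 14.2% of all counts in HS4d replicate 1 and 14.9% in HS4d replicate 2. They ran from rank 2 to rank 90, and their VM means ran from 0.0515 to 0.80 CPM with a median of 0.251 CPM. Member 6 was among the highest of them, with 10743, 10343 and 137 CPM in HS4d replicates 1, 2 and 3. It had only 4, 1 and 2 counts in VM replicates 1, 2 and 3. The low members, GSBRNA2T00156847001 among them, made up 7.24% and 7.57% of these libraries.

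The 21 members at 10 CPM or more in VM were not confined to the tail of the list. Of the 10 highest ranked members 6 were among them. The 17 expressed members made up 8.60% of HS4d replicate 1 and 9.51% of HS4d replicate 2, and the 4 high members 2.54% and 2.66%. Even the best expressed of them was outside the top 100 in 2 of the 3 VM libraries. That gene, member 78, stood at 386, 406 and 370 CPM in VM replicates 1, 2 and 3, where it ranked 120, 100 and 133. In HS4d replicates 1, 2 and 3 it stood at 1651, 1624 and 528 CPM. Its VM mean was 23.6% of its mean in HS4d replicates 1 and 2, whereas no other member exceeded 2.56%. The other high members were number 7, at 164, 81.2 and 173 CPM in VM replicates 1, 2 and 3, number 11 and number 12. Across the 90 members the VM mean was a median of 0.0149% of the mean in HS4d replicates 1 and 2. Members with higher levels at day 4 tended to have higher levels at day 0. The Spearman correlation of the means was 0.47 over 90 genes, which share libraries, depth and their uncorrected lengths.

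Many of the better measured members were lower in VM replicate 2 than in the other VM libraries. Of the 37 members with a VM mean of at least 1 CPM, 28 were lowest in VM replicate 2 and 30 highest in VM replicate 3. In 27 of the 37 (73.0%) the order was VM replicate 3 above replicate 1 above replicate 2, against 11.9% of the 45350 genes at that VM level. The median ratio of VM replicate 2 to the mean of VM replicates 1 and 3 was 0.312 for the members and 1.04 for all such genes. That ratio was under 0.5 for 24 of the 37 members (64.9%) and for 353 of the 45350 genes (0.778%). Among those 353 genes the 24 members made up 6.80%.

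Among these 37 members the lowest ratio was that of member 22, with 10.54, 1.03 and 27.4 CPM in VM replicates 1, 2 and 3, a ratio of 0.0545. Member 30 had 11.4, 1.28 and 24.7 CPM and member 4 had 7.76, 1.55 and 26.8 CPM in the same libraries. In each of these the highest VM library was more than an order of magnitude above the lowest. The 24 members with a ratio under 0.5 had a median ratio of VM replicate 3 to replicate 1 of 1.66, and replicate 3 was above replicate 1 in all of them. In contrast, 8 members had a ratio of 0.8 or more, and their median of VM replicate 3 to replicate 1 was 1.06. Members 9, 11, 12, 41 and 78 were among these 8, as was member 33, which went the other way with 1.07, 1.43 and 0.509 CPM in VM replicates 1, 2 and 3 (a ratio of 1.81). Member 9 was nearly level, with 74.6, 79.9 and 74.3 CPM in the same libraries. The 3 VM libraries had similar totals and TMM scaling factors (1.39, 1.42 and 1.36), and whether reads carried over between libraries contribute to the members' levels in VM, and so to their classes, was not tested.

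**Figure D2:**
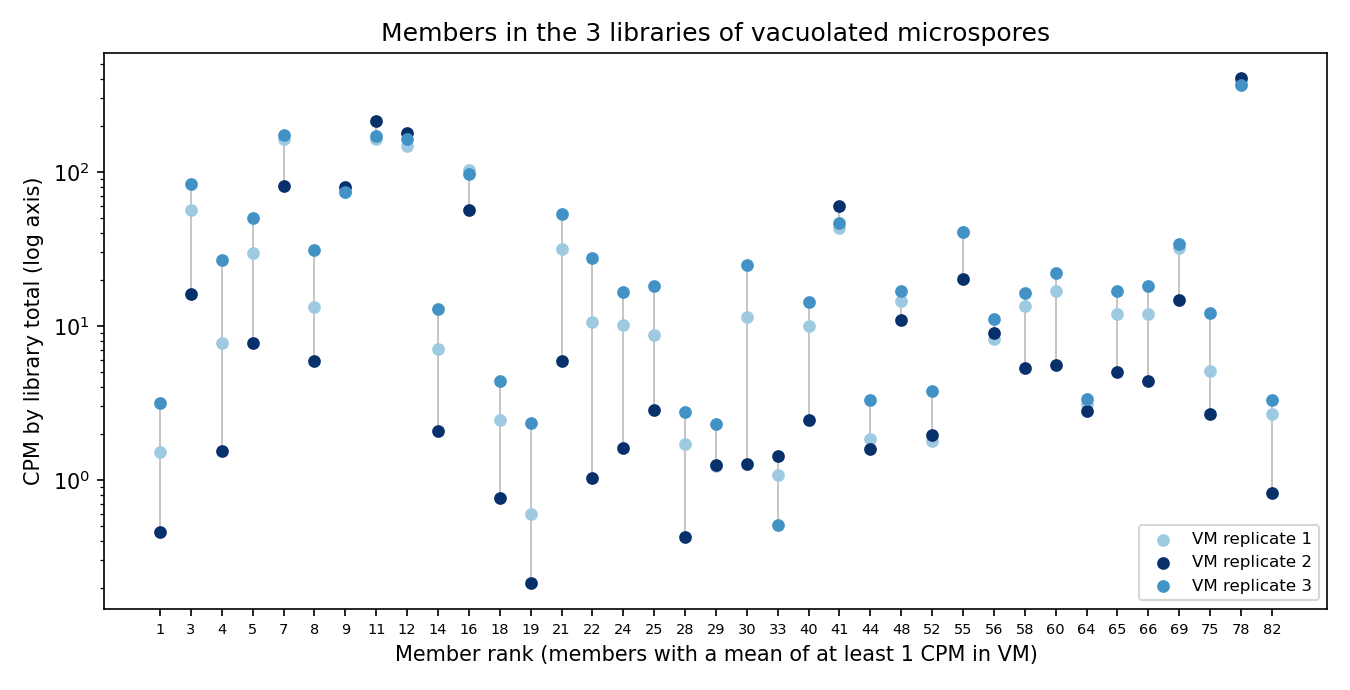
CPM (log axis) of the 37 members with a mean of at least 1 CPM in VM, by VM replicate, with a line joining the lowest and the highest library of each member. VM replicate 2 is the lowest point for 28 of the 37 members and VM replicate 3 the highest for 30.

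A low level in VM replicate 2 was also found in some other genes. Among genes outside the list with a VM mean of at least 1 CPM, the ratio was under 0.5 for 5 of 9 genes at 1000 CPM or more in HS4d replicates 1 and 2. The share was 5.95% of 353 genes at 100 to under 1000 CPM (median ratio 0.975), 0.732% of 9977 genes at 10 to under 100 CPM and 0.347% of 23638 genes at 1 to under 10 CPM. It was 1.31% of 11336 genes under 1 CPM. The genes outside the list that were in the top 100 of HS4d replicate 3 had 3 of 55 genes (5.45%) under that ratio. These shares were not tested.

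**Figure D3:**
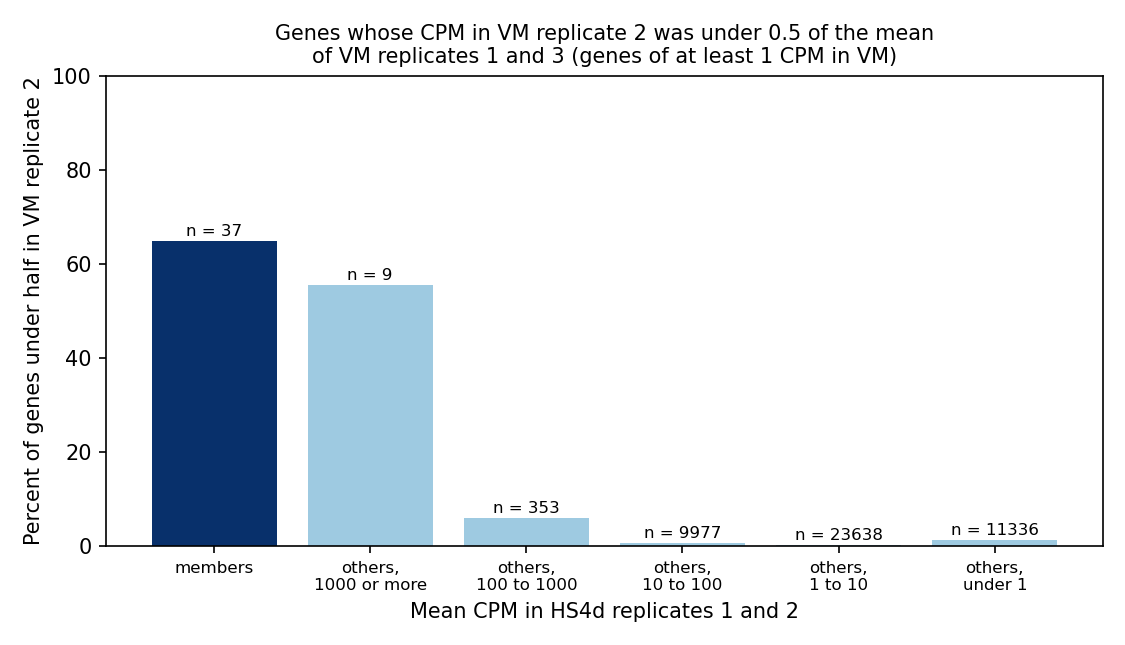
Percent of genes (bars, from 0) whose CPM in VM replicate 2 was under 0.5 of the mean of VM replicates 1 and 3, among genes with a VM mean of at least 1 CPM, by mean CPM in HS4d replicates 1 and 2. The bar for the members reaches 64.9% and that for other genes at 1 to under 10 CPM 0.347%.

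HS4d replicate 3, the heated library that the rule did not use, had counts for every member, but at far lower levels than HS4d replicates 1 and 2. Their levels there ran from 4.13 to 528 CPM with a median of 23.7 CPM. By the same limits as above, 12 members were low, 70 expressed and 8 high in HS4d replicate 3, and none was silent or trace. Only member 78 was in the top 100 of that library, at rank 73, and 6 members were in its top 1000.

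In HS4d replicate 3 most members stood at 0.5% to 1.5% of their level in HS4d replicates 1 and 2. As a percent of the mean of HS4d replicates 1 and 2, their level had a median of 0.821%, with quartiles of 0.651% and 1.10%. For 77 of the 90 members it lay between 0.5% and 1.5%, for 10 below and for 3 above. The lowest was member 56 at 0.238%, and the next to highest was member 7 at 1.59%. Member 78 stood alone at 32.2%. The order of the members followed that of HS4d replicates 1 and 2, with a Spearman correlation of 0.843 over 90 genes, and less that of VM, with 0.509. Of the 690 other genes with at least 100 CPM in both HS4d replicates 1 and 2, 27.0% lay between 0.5% and 1.5% and 36.7% above. Their median was 0.953%. The members differed here from these 690 genes in the width of the spread more than in its centre. The 70 genes that came next in both HS4d replicates 1 and 2 had a lower median of 0.515%, with quartiles of 0.282% and 0.924%. These are descriptions without a test. Whether reads carried over from HS4d replicates 1 and 2 contribute to the members' counts in HS4d replicate 3, and so to the calls made on that library, was not tested.

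**Figure D4:**
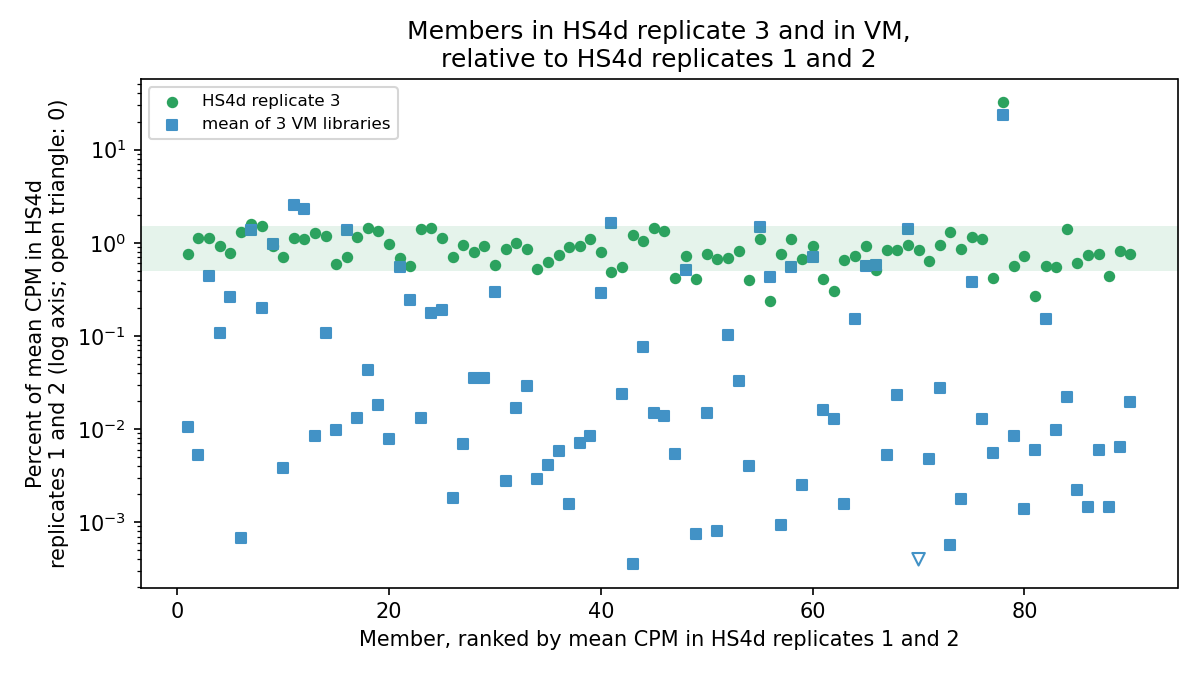
Level of each member in HS4d replicate 3 (circles) and in the mean of the 3 VM libraries (squares; open triangle for 0), as a percent of its mean CPM in HS4d replicates 1 and 2 (log axis). The shaded band spans 0.5% to 1.5% and holds 77 of the 90 members in HS4d replicate 3, while the VM values spread from 0 to 23.6%.

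HS4d replicate 3 was compared with VM to ask whether the members were also above day 0 in a library that had no part in choosing them. Of the 90 members, 69 were higher in HS4d replicate 3 than in VM, 1 was lower and 20 were not called (edgeR's quasi-likelihood test at an adjusted p under 0.05, Benjamini-Hochberg). Over all 62071 genes tested, 27.3% were called higher and 27.2% lower. The members passed the filter on low counts through the heated libraries that chose them, whatever their level in VM. Their entry to the test thus depended on the rule. Their calls and median are therefore a description, and not a held-out comparison with all genes tested. The median log2 fold change was 6.04 for the members and -0.05 for all genes tested. Placing member 70, which had no VM count, at its bound could not move the members' median, which stayed at 6.04. The fitted log2 fold change of member 70, 11.9, and its bound of 517-fold both lay above that median. HS4d replicate 3 is 1 library, assumed in the test to vary as the replicates of the other libraries do, so the test compares this library with VM and not the conditions. Without scaling factors, by library size alone, the median of all genes tested moved to -0.28 and that of the members to 5.82.

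The VM level that sets a member's class was also the baseline of this test. The members passed the filter on low counts through HS4d replicates 1 and 2. The counts by class, and their comparison with all genes tested, are therefore a description. A silent gene could not be called lower (0 of all 3149 silent genes tested). All 12 silent and all 41 trace members were called higher, as were 14 of the 16 low members, 2 of the 17 expressed members and none of the 4 high members. Among all genes tested of the same VM class, the share called higher was 61.7% of the silent, 35.8% of the trace, 26.8% of the low, 18.3% of the expressed and 7.68% of the high genes. Lower calls were made for 35.5% of all expressed and 43.3% of all high genes tested, against 1 of the 17 expressed and none of the 4 high members. In plain CPM, 77 members had HS4d replicate 3 above all VM libraries, against 35.5% of all genes tested. It lay below every VM library for 6 members, against 51.7% of all genes tested.

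GSBRNA2T00156847001 was higher in HS4d replicate 3 than in VM by a log2 fold change of 6.38 ± 0.88 (SE, edgeR adjusted p = 0.000258). GSBRNA2T00049471001 was higher by 7.96 ± 1.00 (SE, edgeR adjusted p = 0.000141). Members 4 and 8 were the expressed members called higher, with log2 fold changes of 3.34 ± 1.05 and 3.15 ± 0.76 (SE, edgeR adjusted p = 0.0231 and 0.00662).

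The member called lower was GSBRNA2T00036472001, number 41. It stood at 43.1, 60.1 and 46.8 CPM in VM replicates 1, 2 and 3, and at 2641, 3504 and 15.02 CPM in HS4d replicates 1, 2 and 3. HS4d replicate 3 was thus below all VM libraries while the other heated cultures were far above them. Its log2 fold change in HS4d replicate 3 against VM was -1.50 ± 0.47 (SE, edgeR adjusted p = 0.0242). The call was lost without VM replicate 1 (edgeR adjusted p = 0.0553) or VM replicate 2 (edgeR adjusted p = 0.0583), with log2 fold changes of -1.59 and -1.37. Over its 11 alternatives the largest adjusted p was the edgeR value of 0.0583 without VM replicate 2. Members 9, 11, 12, 16 and 56 also had HS4d replicate 3 below all VM libraries and were not called. By library size alone, with DESeq2 and in the fit of VM and HS4d replicate 3 only, 3 members were called lower. Of all genes tested, 33.6%, 26.5% and 28.1% were called lower in these settings. Member 9, named above as not called, stood at 73.3 CPM in HS4d replicate 3 (edgeR log2 fold change 0.18 ± 0.53 SE).

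**Figure D5:**
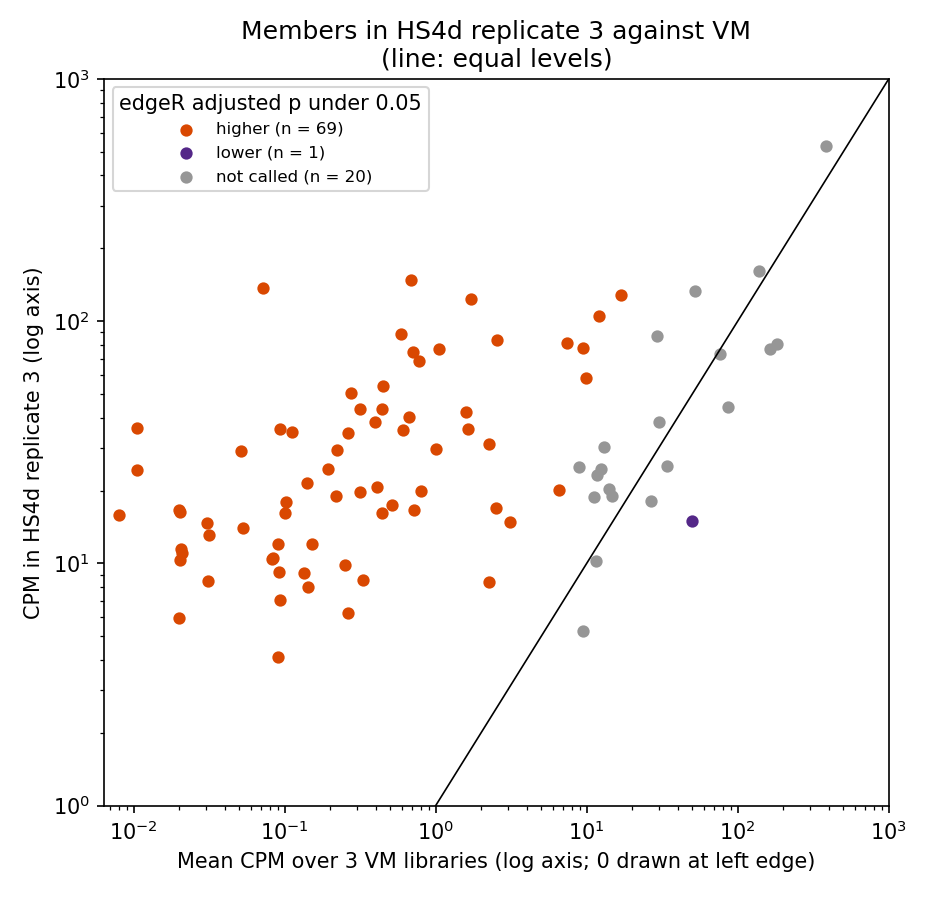
CPM of each member in HS4d replicate 3 against its mean CPM over the 3 VM libraries (log axes), coloured by the edgeR call and with the line of equal levels. The 69 members called higher lie above the line, and most of the 20 not called lie near it, at VM means of about 10 CPM or more.

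In the comparison of the labelled groups, all 3 HS4d libraries against VM, all 90 members passed the filter on low counts. Of them, 60 were called higher and none lower. The rule used this contrast, and nothing is read from that count beside the 17.3% of all 56949 genes tested that were called higher and the 11.4% called lower. By library size alone 9.2% of all genes were higher and 18.1% lower, and 66 members were called higher. All 90 fitted log2 fold changes were above 0, from 2.97 for member 78 upward. The most abundant members were not called. GSBRNA2T00156847001 and GSBRNA2T00049471001 had log2 fold changes of 13.97 ± 6.17 and 14.99 ± 5.89 (SE, edgeR adjusted p = 0.135 and 0.104), with the widely differing heated libraries given above. By VM class, 12 of 12 silent, 38 of 41 trace, 8 of 16 low, 2 of 17 expressed and none of the 4 high members were called. Shares of all genes by VM class were not computed for this contrast. HS4d replicates 1 and 2, which chose the members, are part of it, so nothing is read from these counts. DESeq2 called all 90, with 25.5% of all genes called higher, and edgeR without HS4d replicate 3 also called all 90, with 36.5% of all genes called higher. Leaving out VM replicate 1, 2 or 3 gave 0 calls among the members by edgeR. Over all genes tested, the percent called higher at the same adjusted p under 0.05 was then 2.36, 0 and 0.949.

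The CPM of other genes in HS4d replicates 1 and 2 depended in part on whether the members were counted in the totals. For 21142 other genes with at least 10 CPM in VM, the median log2 ratio to VM was -1.89 in HS4d replicate 1 and -1.81 in HS4d replicate 2 when CPM was taken over the library total. With the members left out of the totals it was -1.28 and -1.16. In HS4d replicate 3, where the members held few counts, it was -0.47 both ways. Values are log2 ratios after adding 0.1 CPM. The TMM factors were 0.552, 0.572 and 1.18 in HS4d replicates 1, 2 and 3, and leaving the members out of their calculation changed no count of members called.

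Some members carried neighbouring identifier numbers. Of the 90, 24 (26.7%) had another member within 5 in the number of their identifier, in 9 pairs and 2 runs of 3. The same held for 2 of the 70 genes that came next in both HS4d replicates 1 and 2 (2.86%), for none of the 79 genes in the top 100 of all VM libraries, and for 15 of the 100 highest genes of HS4d replicate 3. These shares were not tested against each other, and the distance of 5 was chosen after the values were seen. Whether neighbouring numbers mean neighbouring or related genes is not given in the sources used here, and reads shared between near-identical copies may be divided in ways the counts do not show. Members of a pair or run were of 1 VM class in 3 of the 11 cases. Members 3 and 40, a pair with consecutive numbers, were at a mean of 52.2 and 8.91 CPM in VM and at 11917 and 3122 CPM in HS4d replicates 1 and 2. Members 5, 65 and 70 formed a run of 3, with VM means of 29.2, 11.2 and 0 CPM. Members 43 and 73 had 1 count each over the VM libraries, and 36.4 and 24.3 CPM in HS4d replicate 3.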

How the data were processed

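Counts per gene are the raw counts the authors deposited for 6 libraries. The authors also deposited log2-like VST values for 5 of them, without HS4d replicate 3. The submitters' processing notes name fastp 0.22.0, HISAT2 and DESeq2. How reads were counted, on which build and annotation, and how multi-mapping reads were treated, is not given in the sources at hand. Libraries, per the labels' protocols, were non-directional, so reads of a gene and of an antisense partner cannot be told apart. Reads of near-identical homoeologues may be split between them.

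CPM used library totals. The labelled groups (3 libraries each, described by the series as biological replicates) were compared with edgeR 4.0.16 in R 4.3.3: filterByExpr (minimum count 10), TMM, quasi-likelihood test with group as the only term. For HS4d replicate 3 against VM, the fit had 3 levels (VM, HS4d replicates 1 and 2, HS4d replicate 3). Genes needed the CPM of 10 counts at the median library in 2 libraries and 15 counts in all, so all members passed whatever their level in VM. A standard error is |log2 fold change|/√F, from the test's F value. DESeq2 1.42.0, other scalings, filters and left-out libraries were the alternatives. Named by a fixed rule were the 2 highest ranked members and up to 2 called lower in HS4d replicate 3. Members singled out by number, the limits for the ratios between libraries and the identifier distance of 5 were chosen after their values were seen. Product lists and marker lists were not used, because no names were at hand. The members, classes and tests were chosen with earlier results of these data known.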

Additional observations from a re-analysis of the deposited data

How the results depend on the processing

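Comparing HS4d replicate 3 with VM, the 69 members called higher became 67 to 73 over the 11 alternatives. Of all genes tested, 22.4% to 28.8% were called higher in the same alternatives. The median log2 fold change of the members stayed between 5.63 and 6.27. The 1 member called lower became 3 by library size alone, with DESeq2 and in the fit of VM and HS4d replicate 3 only. Of all genes tested, 33.6%, 26.5% and 28.1% were called lower in these settings. With 1 library left out, 0 to 1 members were called lower, beside 23.5% to 29.7% of all genes. The first and second members kept their call there in all 11 alternatives. In the comparison of the labelled groups, the 60 members called higher became 66 by library size alone, 71 without the filter and 90 with DESeq2, where 9.2%, 11.2% and 25.5% of all genes were called higher. Leaving out 1 library, with the filter recomputed, gave 0 to 90 (0 without any of the VM replicates, 20 without HS4d replicate 1 and 34 without HS4d replicate 2, where 8.63% and 11.4% of all genes were called higher). With the replicate block 4 members were called, no larger a share than the 5.82% of all genes called higher. For VM and HS4d libraries of the same number, deviations from the mean of their group correlated at -0.012, -0.035 and -0.036. With 3 libraries in each group, these values cannot settle whether the numbers pair the libraries. By library size alone the median log2 fold change of all genes tested moved from 0.07 to -0.78; it was also below 0 without HS4d replicate 3 (-0.06) and with the replicate block (-0.07). The median log2 fold change of the members in HS4d replicate 3 and the fold changes of the 3 members named by identifier kept their direction under every alternative tried. The cause of these shifts was not tested.

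The members silent in VM numbered 12, but 1 if 0 counts in all VM libraries were asked for, and 13 to 18 with 1 VM library left out. With 47 genes from the top 50 of both HS4d replicates 1 and 2, the mean share of counts was 27.7% in those libraries, 0.0931% in VM and 0.275% in HS4d replicate 3. With 180 genes from the top 200 the shares were 44.0%, 0.274% and 0.522%. At these depths a level under 0.0758 to 0.103 CPM in 1 library rests on fewer than 3 counts.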
